A study of Mus musculus with 24 samples.

Results

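The genes described here mark T cells and cytotoxic lymphocytes: Cd3d, Cd3e, Cd3g, Cd8a, Cd4, Cd2, Lck, Gzmb and Nkg7. They were chosen by symbol, and 7 of these 9 symbols were found among the 12091 genes of the deposited table. Cd4 and Cd2 were not analysed here. The study asked what changes in breast tumors when pleiotrophin (PTN, gene Ptn), a secreted heparin-binding growth factor, is blocked by the monoclonal antibody 3B10. RNA of whole tumors was sequenced from 4 groups of 3 mice. 4T1 tumors grew in BALB/c mice from a mammary carcinoma line injected into the mammary fat pad of female mice at 8 wk of age, and treatment began when tumors could be felt. MMTV-PyMT tumors arose in female FVB/N mice that carry the polyoma middle T antigen under the MMTV promoter, which drives it in mammary epithelium, and treatment began at 8 wk of age. In each model, 3 tumors came from mice given 3B10 at 15 mg/kg in 2 doses per week, and 3 from mice given C44, a mouse IgG control, at the same dose. MMTV-PyMT mice whose tumors were weighed were treated up to 12 wk of age, and whether the sequenced tumors were taken at that age is not stated in the sources used here. The table also holds cultures of E0771, a mouse mammary carcinoma line, and of E0771-LG, derived from a lung metastasis of E0771, both of C57BL/6 origin. Each line was cultured with a control vector (plko) or a short hairpin RNA against Ptn (shPTN), with 3 samples per group.

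CD3 gamma, delta and epsilon chains carry the signal of the T cell receptor into the cell, and the kinase LCK, bound to the coreceptors CD4 and CD8, phosphorylates them first. Cytotoxic T cells and natural killer (NK) cells kill through granules that hold granzyme B and perforin, and NKG7 is a membrane protein of those granules. In mammary tumors such cells are a minor part of the tissue, beside tumor epithelium, fibroblasts and myeloid cells.

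The values of the MMTV-PyMT tumors and of the cultures had the steps of log2 CPM (reads per M reads) to which 0.5 reads had been added, and undoing this gave whole reads for 100% of the values, within 0.05 reads. Depth was 19.2, 19.3 and 18.8 M reads in the C44 tumors of MMTV-PyMT mice and 16.3, 18.4 and 16.3 M reads in the 3B10 tumors, in the order of replicates 1 to 3. Each C44 library of this model was thus deeper than each 3B10 library. The 4T1 values had no such steps, and their depth is unknown. Relative to MMTV-PyMT values they fell with gene length, with a slope of −1.26 per log2 unit of length over all 12091 genes and of −0.84 over the 10890 genes tested in both models. The second gene set was added after the first slope had been seen. For MMTV-PyMT less E0771 values, both on the CPM scale, the slopes were 0.000857 and −0.18. The 4T1 values were therefore treated as log2 values normalized for gene length, and levels are not compared between the models. Of 15 epithelial genes, Krt18 was the most abundant in 4T1 tumors (mean log2 value 11.21) and Krt8 in MMTV-PyMT tumors (mean log2 CPM 10.45). An order within a list of epithelial genes cannot check the tissue label. The macrophage gene Lyz2 had a higher mean than Krt18 in 4T1 tumors (12.29).

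In 4T1 tumors, each of the 7 genes had a lower mean with 3B10 than with C44, beside 48.4% of all genes tested. For 6 of the 7 no 3B10 tumor reached the lowest C44 tumor, beside 4.42% of all genes tested. None of the differences of the 7 genes passed the threshold of an adjusted p under 0.05. In MMTV-PyMT tumors all 7 genes overlapped between the groups, and 2.27% of all genes tested had every 3B10 tumor below every C44 tumor. One 4T1 tumor, 3B10 replicate 3, had the lowest value of the 6 tumors in 6 of the 7 genes, whereas it was lowest in 11.8% of all genes tested in this model. Attention to this tumor followed from its values, and results for the 7 genes are given with and without it. At the other end, C44 replicate 3 of the 4T1 model had the highest value in 4 of the 7 genes, beside 10.3% of all genes tested.

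The CD3 genes lie side by side on chromosome 9 (GRCm38). Cd3g (minus strand) and Cd3d (plus strand) start from opposite strands with 1354 bases between them, Cd3e (minus strand) follows 11400 bases further on, and the whole span is 40056 bases. The promoters of these neighbors are shown because the 3 genes were lower together in 4T1 tumors, and those of Lck as an example of a gene elsewhere that was lower too. Cd8a and Nkg7 were also lower without overlap, and their promoters are not shown. RefSeq held 8 entries for the 7 genes, with 2 start sites for Lck. Each sequence runs from 250 bases before the start site through the first 50 bases after it (GRCm38.p6), at chr9:44980382-44980681 (minus) for Cd3g, chr9:44981536-44981835 (plus) for Cd3d, chr9:45009562-45009861 (minus) for Cd3e, and chr4:129558323-129558622 and chr4:129573592-129573891 (both minus) for the inner and outer start of Lck. Capitals mark AGGAAG, the core bound by ETS factors, and TGTGGT, a site bound by RUNX factors, on either strand (as CTTCCT and ACCACA). No matches of the motifs overlapped in these entries, and the motifs were picked after the sequences had been read.
Cd3g: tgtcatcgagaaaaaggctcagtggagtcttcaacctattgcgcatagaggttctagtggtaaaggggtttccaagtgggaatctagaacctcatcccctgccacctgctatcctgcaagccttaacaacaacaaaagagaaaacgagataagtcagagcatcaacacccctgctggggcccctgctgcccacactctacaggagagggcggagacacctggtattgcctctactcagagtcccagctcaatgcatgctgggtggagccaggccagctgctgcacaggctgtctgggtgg
Cd3d: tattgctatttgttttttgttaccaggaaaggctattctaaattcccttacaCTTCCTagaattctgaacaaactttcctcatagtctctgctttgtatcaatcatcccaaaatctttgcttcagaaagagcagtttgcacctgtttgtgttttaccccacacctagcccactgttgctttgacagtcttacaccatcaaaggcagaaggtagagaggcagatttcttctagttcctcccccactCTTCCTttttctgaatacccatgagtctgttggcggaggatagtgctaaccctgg
Cd3e: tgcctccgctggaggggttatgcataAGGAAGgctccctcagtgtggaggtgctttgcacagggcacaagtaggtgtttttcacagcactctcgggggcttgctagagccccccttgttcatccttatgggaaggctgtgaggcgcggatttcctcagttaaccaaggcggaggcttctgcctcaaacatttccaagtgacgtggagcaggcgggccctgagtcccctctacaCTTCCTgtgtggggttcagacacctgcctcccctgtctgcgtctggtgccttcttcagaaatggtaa
Lck inner start: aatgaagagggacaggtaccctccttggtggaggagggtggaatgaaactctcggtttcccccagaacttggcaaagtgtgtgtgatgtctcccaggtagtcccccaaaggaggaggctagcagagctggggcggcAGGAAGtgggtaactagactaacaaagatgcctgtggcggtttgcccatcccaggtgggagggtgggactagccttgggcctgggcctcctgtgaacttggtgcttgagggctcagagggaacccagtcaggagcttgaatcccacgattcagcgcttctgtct
Lck outer start: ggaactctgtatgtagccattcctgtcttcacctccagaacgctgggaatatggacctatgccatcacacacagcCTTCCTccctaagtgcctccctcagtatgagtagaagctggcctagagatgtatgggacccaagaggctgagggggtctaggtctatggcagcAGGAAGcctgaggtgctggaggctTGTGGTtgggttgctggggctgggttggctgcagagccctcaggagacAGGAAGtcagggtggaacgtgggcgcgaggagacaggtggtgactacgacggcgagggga
AGGAAG was found in 5 of the 8 entries, and in 35.4% of all 32851 promoters of the same length. TGTGGT was found in 3 of the 8, and in 16.8% of all promoters. Cd3g and Cd8a had neither motif, Nkg7 had 1 match to each, and Cd3d and Cd3e each had 2 matches to AGGAAG. A match describes these letters alone.

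Cd3d, the delta chain of CD3, had log2 values of 3.21, 3.70 and 4.16 in the C44 tumors of the 4T1 model and of 2.90, 2.69 and 0.77 in the 3B10 tumors, in the order of replicates 1 to 3. The 3B10 tumors lay below the C44 tumors without overlap, and 3B10 replicate 3 lay far below the other 3B10 tumors. The change with 3B10 for Cd3d, on the log2 scale, was −1.57 (SE 0.55, adjusted p = 0.725), and it was −0.89 without 3B10 replicate 3. Fewer cells of a type and less RNA per cell cannot be told apart in RNA of whole tumors, here or for the genes below. Cd3e, the epsilon chain, was 3.54, 3.82 and 3.83 with C44 and 2.91, 2.99 and 1.47 with 3B10. The C44 tumors were close to each other, and all 3B10 tumors were lower. The change with 3B10 was −1.27 log2 units (SE 0.40, adjusted p = 0.722), or −0.78 without 3B10 replicate 3. Cd3e overlaps the annotated genes Gm48719 on the opposite strand and Gm48720 on the same strand, and since the strand of the libraries is not stated, reads of these genes cannot be told apart from its own. Cd3g, the gamma chain, was 4.66, 5.07 and 5.27 with C44 and 4.19, 4.25 and 2.72 with 3B10, again without overlap and with 3B10 replicate 3 lowest. For Cd3g the log2 fold change came to −1.28 (SE 0.41, adjusted p = 0.723), or −0.78 without that tumor.

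Cd8a encodes the alpha chain of the CD8 coreceptor of cytotoxic T cells. In 4T1 tumors its log2 value was 3.75, 4.33 and 4.04 with C44 and 2.89, 3.42 and 1.63 with 3B10. All 3B10 tumors were below all C44 tumors. Expressed as log2 fold change this was −1.39 (SE 0.43, adjusted p = 0.722), or −0.89 without 3B10 replicate 3. Cd8b1, the gene of the other CD8 chain and 35932 bases from Cd8a on chromosome 6, belonged to the T cell list and was 3.16, 4.08 and 4.34 with C44 and 2.88, 3.45 and 1.38 with 3B10. Here 3B10 replicate 2 exceeded C44 replicate 1, so the groups overlapped. For Cd8b1 it was −1.29 (SE 0.54, adjusted p = 0.776), or −0.69 without 3B10 replicate 3. Lck, whose kinase starts T cell receptor signaling and whose locus also holds the microRNA gene Mir8119, was 3.59, 3.80 and 3.96 with C44 and 2.97, 3.13 and 2.44 with 3B10. The groups did not overlap, and the 3B10 tumors were closer together than for the CD3 genes. The Lck log2 fold change of −0.94 (SE 0.22, adjusted p = 0.706) had the lowest adjusted p of the 7 genes, and it was −0.73 without 3B10 replicate 3.

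Among the cytotoxic genes, Nkg7 was 5.16, 5.27 and 5.19 with C44 and 4.83, 4.49 and 2.82 with 3B10 in 4T1 tumors. The C44 tumors were nearly equal and all 3B10 tumors were lower. For Nkg7 the 3B10 less C44 difference was −1.16 log2 units (SE 0.47, adjusted p = 0.753), or −0.55 without 3B10 replicate 3. Gzmb, which encodes granzyme B, was 5.14, 5.08 and 4.33 with C44 and 5.48, 3.16 and 3.63 with 3B10. This was the one gene of the 7 whose groups overlapped, because 3B10 replicate 1 was the highest of all 6 tumors and the other 3B10 tumors were the lowest. The Gzmb difference, 3B10 less C44, was −0.76 log2 units (SE 0.56, adjusted p = 0.913). It was −1.45 without 3B10 replicate 1, −0.29 without 3B10 replicate 2 and −0.53 without 3B10 replicate 3, and without 3B10 replicate 1 the groups did not overlap.

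**Figure D1:**
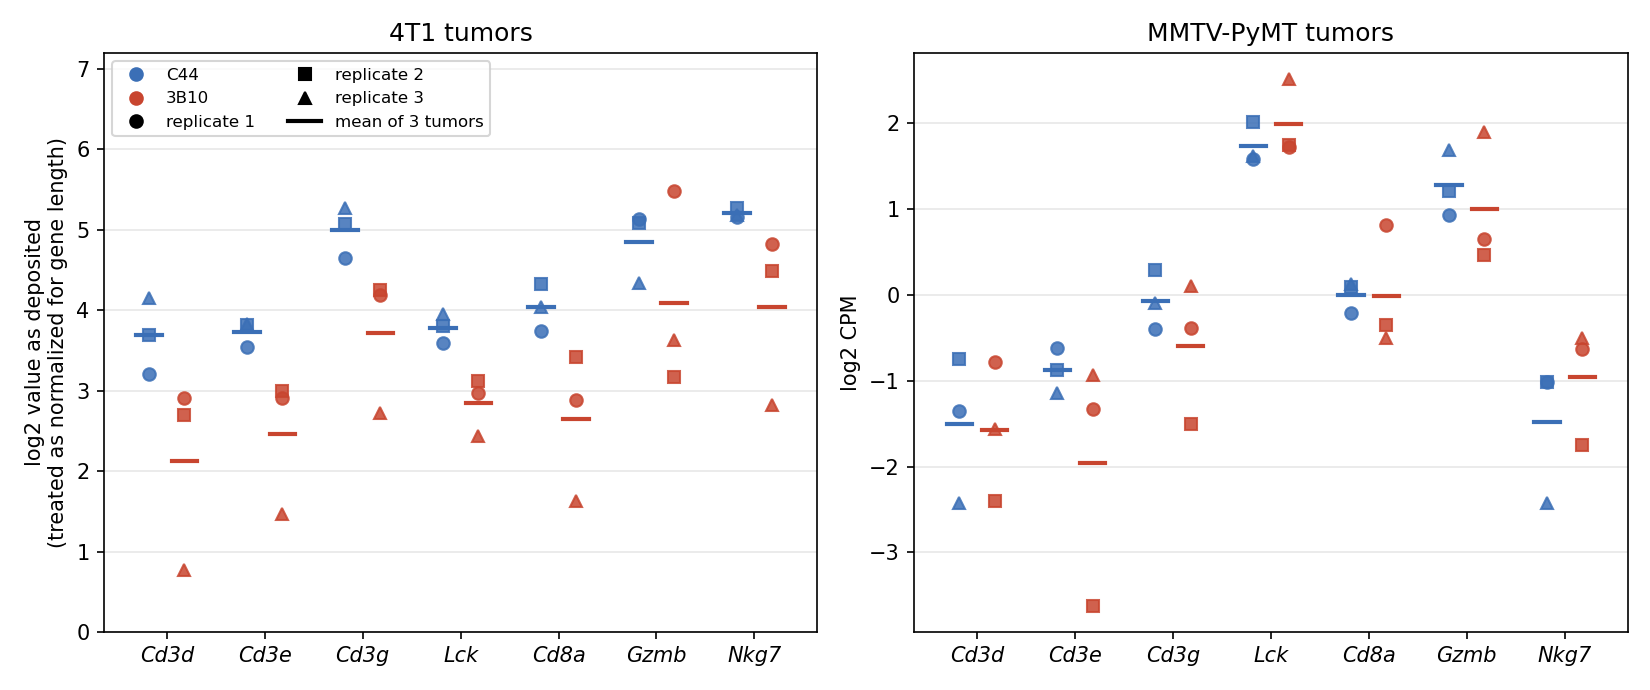
Value of each of the 7 genes in each tumor (points, shaped by replicate; lines, mean of 3 tumors) with C44 (blue) or 3B10 (red). Left, 4T1 tumors, log2 value as deposited; right, MMTV-PyMT tumors, log2 CPM. In 4T1 tumors 6 of 7 genes show no overlap, beside 4.42% of all genes tested with every 3B10 tumor below every C44 tumor. The tumor 3B10 replicate 3 (triangle) is mostly lowest. In MMTV-PyMT tumors all 7 overlap, and 2.27% of all genes tested are lower without overlap.

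By limma over 11467 genes, 0 genes of the 4T1 comparison passed an adjusted p under 0.05 (0%; smallest adjusted p = 0.334), and 719 had an unadjusted p under 0.05, 355 of them lower and 364 higher with 3B10. The p-values measure the spread between the 3 tumors of a group. This even split depended on single tumors and on the fit. Lower and higher genes at unadjusted p numbered 217 and 181, 210 and 184, and 767 and 535 without C44 replicates 1, 2 and 3, and 369 and 700, 529 and 242, and 194 and 176 without 3B10 replicates 1, 2 and 3. With all 24 samples in one fit they numbered 216 and 480. Without 3B10 replicate 1, 2 genes passed the adjusted threshold, none of them among the 7. Of the 7 genes, all 7 were lower, 6 at unadjusted p under 0.05, where 3.1% of all genes tested were lower at that level. Without C44 replicate 3 it was 3 of the 7, beside 6.69% of all genes, and with all 24 samples in one fit 2 of the 7, beside 1.88%. Every 3B10 tumor was below every C44 tumor for 6 of the 7 and for 4.42% of all genes tested. A difference of at least 1 log2 unit, a limit chosen after the values had been seen, was found for 5 of the 7 and for 0.506% of all genes, but for 0 of the 7 and 0.314% of all genes without 3B10 replicate 3. Without C44 replicate 3, 3B10 replicate 2 or 3B10 replicate 1 it was found for 6 of the 7, beside 1.26%, 1.14% and 1.00% of all genes. The median log2 fold change was −1.27 over the 7 genes and 0.01 over all genes, of which 48.4% were lower. Without 3B10 replicate 3 the median of the 7 was −0.78, all 7 were still lower, and 6 of the 7 did not overlap, beside 7.51% of all genes. Without C44 replicate 3 this background was 18.9%. For the 6 genes without overlap, leaving out a tumor can change neither their direction nor the lack of overlap.

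Levels were ordered within C44 tumors of the 4T1 model on the assumption that these values are normalized for gene length. The step that made the values is not given, and the order depends on it. Nkg7 was highest (5.21 ± 0.05, SD, n = 3), before Cd3g (5.001 ± 0.31), Gzmb (4.85 ± 0.45), Cd8a (4.04 ± 0.29), Lck (3.78 ± 0.18), Cd3e (3.73 ± 0.16) and Cd3d (3.69 ± 0.47), all log2 values. Neighbors among the first 3 and among the last 4 of this order did not differ beyond their spread. Here and below this means that their ranges of mean ± SD overlapped, which is no test. In C44 tumors of MMTV-PyMT mice, log2 CPM per kb of exon was highest for Gzmb (0.75), before Lck (0.19), Nkg7 (−1.36), Cd3g (−1.78), Cd8a (−1.86), Cd3d (−2.37) and Cd3e (−2.91). The SD (n = 3) was 0.38, 0.24, 0.81, 0.35, 0.19, 0.85 and 0.26 in the same order. The ranges of mean ± SD overlapped between the first 2 genes, and between neighbors among the last 5.

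In MMTV-PyMT tumors these genes had few reads. Over the 6 tumors, Cd3d had 3 to 11 reads, Cd3e 1 to 12, Cd3g 6 to 23, Nkg7 3 to 11, Cd8a 11 to 28, Gzmb 25 to 60 and Lck 53 to 92. The filter on low values left 3 of the 7 genes to be tested, and 4 were not tested. Lck was 1.58, 2.01 and 1.62 log2 CPM with C44 and 1.72, 1.74 and 2.51 with 3B10. One 3B10 tumor, replicate 3, was highest, and the others lay within the range of C44. With 3B10 the change in Lck was 0.25 log2 units (SE 0.34, adjusted p = 1), or −0.01 without 3B10 replicate 3, 0.39 without 3B10 replicate 1 and 0.39 without C44 replicate 2. Gzmb was 0.93, 1.21 and 1.69 log2 CPM with C44 and 0.65, 0.47 and 1.90 with 3B10, so that the 3B10 tumors held both the highest and the lowest value. The change in Gzmb was −0.27 log2 units (SE 0.48, adjusted p = 1). It depended on single tumors: −0.45 and −0.07 without C44 replicates 1 and 3, and −0.09, −0.004 and −0.72 without 3B10 replicates 1, 2 and 3. Cd8a was −0.22, 0.09 and 0.13 log2 CPM with C44 and 0.81, −0.35 and −0.50 with 3B10, also on both sides of the C44 tumors. The change in Cd8a was −0.01 log2 units (SE 0.50, adjusted p = 1), and its sign turned under several alternatives. It was −0.12, 0.03 and 0.05 without C44 replicates 1, 2 and 3, and −0.42, 0.15 and 0.23 without 3B10 replicates 1, 2 and 3.

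The 4 genes not tested also overlapped between the groups. The reads of Cd3d were 7, 11 and 3 with C44 and 9, 3 and 5 with 3B10, and those of Cd3e were 12, 10 and 8 with C44 and 6, 1 and 8 with 3B10. Cd3g had 14, 23 and 17 reads with C44 and 12, 6 and 17 with 3B10. Nkg7 had 9, 9 and 3 reads with C44 and 10, 5 and 11 with 3B10. At so few reads, differences smaller than the counting error could not be detected. Of the 7 genes, 5 had a lower and 2 a higher mean with 3B10, and 39.0% of all genes tested were lower. The 5 include Cd8a, whose sign turned under several alternatives, and 4 of the 7 were not tested. By limma over 11361 genes, 0 genes passed an adjusted p under 0.05 (0%), 134 were lower and 173 higher at unadjusted p under 0.05, voom weights on the recovered reads gave 0 and 309 genes, and 0 of the 3 genes tested were among them, beside 1.18% of all genes lower at that level. Without PyMT C44 replicate 1 the unadjusted counts were 103 lower and 252 higher, and without 3B10 replicate 2 they were 232 and 188. With median-of-ratios scaling they were 188 and 105, and with quantile normalization 156 and 124. Of all genes tested, 2.27% had every 3B10 tumor below every C44 tumor, and 0 of the 3 genes did.

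The difference between the models in the response to 3B10 was tested by an interaction term for the 3 genes that passed the filter in both. The 4T1 effect less the MMTV-PyMT effect was −1.38 for Cd8a (SE 0.65), −1.19 for Lck (SE 0.40) and −0.48 for Gzmb (SE 0.77), each with adjusted p = 1. At unadjusted p under 0.05 there was 1 of the 3 genes, Lck, beside 1.29% of all genes lower at that level. It was 2 of the 3 without 4T1 3B10 replicate 2 and without PyMT 3B10 replicate 2 or 3, beside 2.00%, 1.64% and 1.99% of all genes. With pseudocounts of 1 or 0.1 and with quantile normalization it was also 2 of the 3, beside 1.32%, 1.29% and 1.29% of all genes. Without 4T1 3B10 replicate 3 the Cd8a difference was −0.87. The Gzmb difference was −0.74 without 4T1 C44 replicate 3, −1.18, −0.02 and −0.25 without 4T1 3B10 replicates 1, 2 and 3, −0.31 without PyMT C44 replicate 1, and −0.75 and −0.04 without PyMT 3B10 replicates 2 and 3. By limma 0 of 10890 genes passed the adjusted threshold (0%), and 252 had an unadjusted p under 0.05, or 168 without 4T1 C44 replicate 1, 168 without replicate 2 and 420 without replicate 3 of that group. A difference between the models was therefore not shown for these genes.

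The median log2 fold change and the counts of 10 other lists of marker genes were set beside the 7 genes. In 4T1 tumors the other T cell genes were lower in 3 of 4 (median −0.62), cytotoxic and NK genes in 11 of 14 (−0.58), and regulatory and checkpoint genes in 7 of 8 (−0.71). Lower values were also found for 16 of 16 genes shared by all leukocytes (−0.45), 2 of 2 B cell and lymph node genes (−0.62), 13 of 15 macrophage and dendritic cell genes (−0.42), 11 of 12 neutrophil genes (−0.68) and 13 of 15 genes of T cell chemokines and the interferon-gamma response (−0.26). Epithelial genes were lower in 1 of 13 (0.45), and fibroblast and endothelial genes in 7 of 12 (−0.06). Without 3B10 replicate 3, the medians were −0.25 for T cell, −0.26 for cytotoxic and NK, −0.34 for regulatory and checkpoint, −0.33 for pan-leukocyte, −0.33 for B cell, −0.31 for macrophage and dendritic cell, −0.43 for neutrophil, −0.09 for chemokine and interferon-gamma, 0.80 for epithelial and 0.07 for fibroblast and endothelial genes. Without it 2 of the 4 T cell genes and 5 of the 12 fibroblast and endothelial genes were lower, and with quantile normalization 2 of the 4 T cell genes were. Other tumors moved the medians as well. Without C44 replicate 3, the B cell median was −0.06 with 1 of 2 genes lower, the T cell median −0.28 and the chemokine and interferon-gamma median −0.48. Without C44 replicate 1 the B cell median was −0.98, and without C44 replicate 2 the chemokine and interferon-gamma median was −0.02 with 8 of 15 genes lower. The cytotoxic and NK median was −1.13 and −0.34 without 3B10 replicates 1 and 2, and the chemokine and interferon-gamma median −0.51 without 3B10 replicate 1. The fibroblast and endothelial median was −0.24, 0.23 and −0.12 without C44 replicates 1, 2 and 3, and 0.22 and −0.41 without 3B10 replicates 1 and 2, so its sign rests on single tumors.

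**Figure D2:**
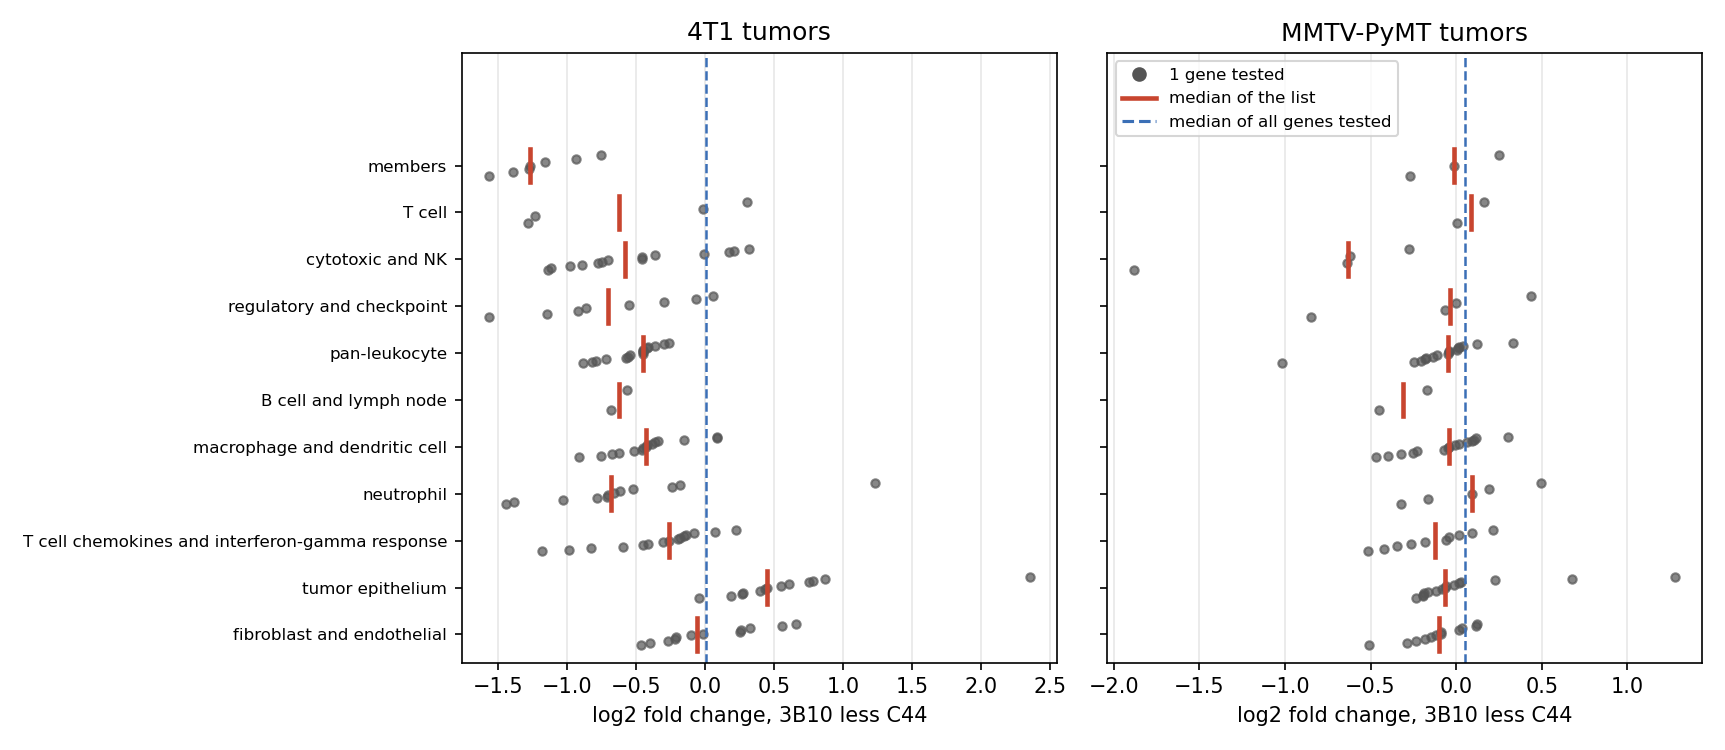
Log2 fold change, 3B10 less C44, of each gene tested (grey) by list, with the median of each list (red) and of all genes tested (dashed), in 4T1 (left) and MMTV-PyMT tumors (right). The top line, "members", holds the genes described here. In 4T1 tumors its median is −1.27, and the median of epithelial genes is 0.45.

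In MMTV-PyMT tumors the medians were 0.08 for T cell (0 of 2 genes lower), −0.63 for cytotoxic and NK (4 of 4), −0.03 for regulatory and checkpoint (2 of 4), −0.05 for pan-leukocyte (10 of 16), −0.31 for B cell (2 of 2), −0.04 for macrophage and dendritic cell (9 of 15), 0.09 for neutrophil (2 of 5), −0.12 for chemokine and interferon-gamma (7 of 10), −0.06 for epithelial (10 of 15) and −0.10 for fibroblast and endothelial genes (8 of 12). The median over all genes tested was 0.05 and 39.0% of them were lower. With median-of-ratios or quantile scaling 1 of the 2 T cell genes was lower. With median-of-ratios scaling 49.7% of all genes were lower, as were 14 of the 16 pan-leukocyte and 12 of the 15 epithelial genes. The median was then −0.09 both for pan-leukocyte and for macrophage and dendritic cell genes. The medians of the lists also depended on single tumors. Without C44 replicate 3 they were at their lowest for T cell (−0.31), neutrophil (−0.72), epithelial (−0.20) and fibroblast and endothelial genes (−0.38), and at their highest for cytotoxic and NK (−0.55) and regulatory and checkpoint genes (0.15). Without C44 replicate 2 they were at their highest for T cell (0.33), pan-leukocyte (0.02), neutrophil (0.68) and fibroblast and endothelial genes (0.15). Without C44 replicate 1 they were lowest for cytotoxic and NK (−0.79), regulatory and checkpoint (−0.31) and chemokine and interferon-gamma genes (−0.21), and highest for B cell (−0.12) and epithelial genes (0.02). Without 3B10 replicate 1 they were lowest for pan-leukocyte (−0.21), B cell (−0.47) and macrophage and dendritic cell genes (−0.28), and without 3B10 replicate 3 highest for macrophage and dendritic cell (0.10) and chemokine and interferon-gamma genes (−0.04). At unadjusted p under 0.05 there were 4 of the 85 genes of these lists that were tested (4.71%), beside 2.7% of all genes tested. Serpinb9, an inhibitor of granzyme B (−0.62, or −0.37 without 3B10 replicate 3), Ikzf1, a leukocyte transcription factor (−1.02, or −0.63 without C44 replicate 3), and Gbp2, an interferon-induced GTPase (−0.51), were lower, and Krt5, a basal keratin (1.28), was higher.

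Of the same lists, 37 of the 111 genes tested had an unadjusted p under 0.05 in 4T1 tumors (33.3%), beside 6.27% of all genes tested. Among T cell and cytotoxic genes these were Cd8b1, Cst7, a cystatin of cytotoxic granules (−0.75), and Il2rb, the beta chain of the interleukin 2 receptor (−1.14). Without 3B10 replicate 3 these 3 changes were −0.69, −0.48 and −0.70. Il2rb was 4.47, 4.57 and 3.48 with C44 and 3.46, 3.49 and 2.15 with 3B10, so C44 replicate 3 lay at the level of the upper 3B10 tumors. Trbc2, a constant segment of the T cell receptor beta chain, and Prf1, which encodes perforin, were added after their values had been seen. Trbc2 was 4.36, 4.36 and 5.68 with C44 and 4.31, 4.12 and 2.27 with 3B10, without overlap but with 3B10 replicate 1 close to the C44 tumors, and differed by −1.24 log2 units (SE 0.59, adjusted p = 0.827). It was −0.59 without 3B10 replicate 3 and −0.79 without C44 replicate 3. Prf1 was 4.64, 4.38 and 3.75 with C44 and 4.45, 2.79 and 2.59 with 3B10, so that 3B10 replicate 1 lay among the C44 tumors, and above the other 3B10 tumors as for Gzmb. Perforin RNA differed by −0.98 log2 units (SE 0.49, adjusted p = 0.843), or −0.64 without 3B10 replicate 3 and −1.57 without 3B10 replicate 1. In MMTV-PyMT tumors Prf1 had 7, 2 and 6 reads with C44 and 1, 0 and 1 with 3B10, without overlap. Pdcd1 had 11, 7 and 6 reads with C44 and 2, 2 and 1 with 3B10, also without overlap. Trbc2, with 9, 10 and 8 reads and 4, 7 and 7 reads, overlapped in log2 CPM. Of all genes tested in that model, 2.27% were lower without overlap. Prf1, Pdcd1 and Trbc2 did not pass the filter on low values there. This share is therefore not a like background for them. In 4T1 tumors the Pdcd1 groups overlapped, with a change of −0.86 log2 units (SE 0.54, adjusted p = 0.889). Klrd1 overlapped in both models, with a change of −0.89 log2 units in 4T1 tumors. Thy1, on T cells but also on fibroblasts, was the most abundant T cell gene in 4T1 (mean 7.97) and MMTV-PyMT tumors (mean 4.19), with log2 fold changes of 0.30 and 0.01. In 4T1 tumors it was 0.14 and 0.54 without C44 replicates 1 and 2, and 0.20 without 3B10 replicate 2. In MMTV-PyMT tumors it lay between −0.28, without C44 replicate 3, and 0.19, without C44 replicate 1. The most abundant cytotoxic gene in 4T1 tumors was Gzmf (mean 6.85, log2 fold change −0.78), one of a cluster of related granzyme genes, Gzmc to Gzmg, between which reads may be divided uncertainly. The Gzmf change was −1.84, −0.13 and −0.36 without 3B10 replicates 1, 2 and 3. Summed levels, off the log scale, were not lower with 3B10 throughout these lists. Those of T cell genes were 218, 365 and 295 with C44 and 280, 367 and 298 with 3B10, led by Thy1. Cytotoxic and NK genes summed to 718, 617 and 885 with C44 and 1476, 341 and 346 with 3B10, so that 3B10 replicate 1 was the highest of all 6 tumors and the other 3B10 tumors were the lowest.

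Among checkpoint genes, Cd274, which encodes the ligand PD-L1, was 5.87, 6.07 and 4.97 with C44 and 5.11, 4.44 and 3.90 with 3B10 in 4T1 tumors. C44 replicate 3 lay below 3B10 replicate 1. In log2 units Cd274 differed by −1.15 (SE 0.37, adjusted p = 0.725). Pdcd1lg2, the gene of the other PD-1 ligand, was −1.57 (SE 0.55) and Tnfrsf9, the costimulatory receptor 4-1BB and the most abundant gene of its list, −0.92 (SE 0.37). Of chemokine and interferon-gamma genes, Ifngr1, a chain of the interferon-gamma receptor, was −0.45, while Gbp2 was the most abundant (mean 8.46). Regulatory and checkpoint genes summed to 254, 291 and 148 with C44 and 165, 146 and 111 with 3B10, which overlapped.

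Most markers of other leukocytes were also lower with 3B10 in 4T1 tumors, whereas most epithelial genes were higher, and fibroblast and endothelial genes went both ways. Of the 16 pan-leukocyte genes, 9 were lower at unadjusted p under 0.05: Ptprc (CD45), Cd53, Cd48, Itgal, Itgb2, Rac2, Vav1, Dock2 and Ikzf1, with log2 fold changes from −0.45 for Cd48 to −0.89 for Itgb2. The summed level of the list, off the log scale, was 1842, 1739 and 1664 with C44 and 1257, 1513 and 1049 with 3B10, without overlap, and Laptm5 was its most abundant gene. Macrophage and dendritic cell genes had summed levels of 13984, 10952 and 13443 with C44 and 6533, 11072 and 7043 with 3B10, led by Lyz2. Csf1r (−0.68), Cd68 (−0.42), Mrc1 (−0.75), Lyz2 (−0.92) and Tyrobp (−0.36) were lower at unadjusted p under 0.05, and the change in Csf1r was −0.43 without 3B10 replicate 1. Neutrophil genes summed to 1329, 1338 and 2080 with C44 and 1343, 1075 and 882 with 3B10, led by S100a9. S100a8 (−0.78), Csf3r (−0.70), Retnlg (−0.62), Ngp (−1.44), Camp (−1.38) and Ltf (−1.03) were lower at that level, and Mmp9 (1.23) was higher. Without C44 replicate 3 the change in S100a8 was −0.47, and without 3B10 replicate 3 that in Csf3r was −0.43. Epithelial genes summed to 3702, 4138 and 4130 with C44 and 5695, 5548 and 5725 with 3B10, without overlap and led by Krt18. Epcam (0.87), Krt8 (0.40), Krt18 (0.45), Krt7 (0.76), Krt14 (2.36) and Cdh1 (0.78) were higher at unadjusted p under 0.05, and the change in Krt7 was 0.46 without 3B10 replicate 2. Of fibroblast and endothelial genes, led by Col1a1, Dcn (0.66) was higher and Pdgfra (−0.46) lower. No gene of these lists was at the lowest value of the table in every 4T1 tumor. None of these genes passed the adjusted threshold. The part of these other cells in the lower values of the 7 genes was not tested.

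The mean of the 7 genes was set against the mean of the 16 pan-leukocyte genes in each 4T1 tumor, a comparison chosen after the lists had been seen. The mean log2 value of the 7 genes was 4.15, 4.44 and 4.40 with C44 and 3.74, 3.45 and 2.21 with 3B10. The mean of the pan-leukocyte genes was 6.05, 6.02 and 5.89 with C44 and 5.39, 5.78 and 5.20 with 3B10. Both means were lower in every 3B10 tumor than in any C44 tumor. The difference of these means, the 7 genes less the pan-leukocyte genes, was −1.90, −1.58 and −1.49 with C44 and −1.65, −2.33 and −2.99 with 3B10. Here 3B10 replicate 1 lay within the C44 tumors, so the groups overlapped. The group means were −1.66 ± 0.21 and −2.33 ± 0.67 (SD, n = 3), a difference of −0.67, which was −0.33 without 3B10 replicate 3 and −1.003 without 3B10 replicate 1. The difference between the groups was the size of the SD among 3B10 tumors. In MMTV-PyMT tumors the same difference, with the 3 genes tested, was −2.72 ± 0.24 with C44 and −2.63 ± 0.39 with 3B10.

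**Figure D3:**
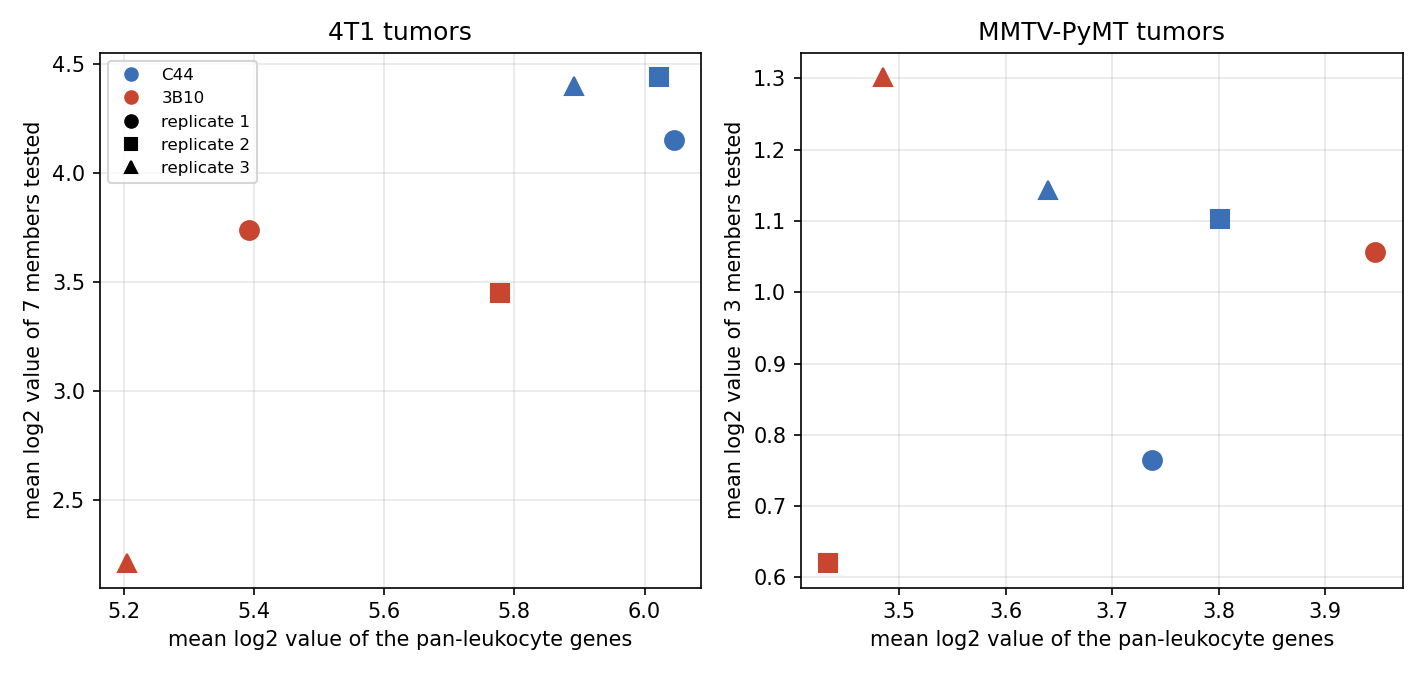
Mean log2 value of the genes described here against the mean log2 value of the pan-leukocyte genes, 1 point per tumor, with C44 (blue) or 3B10 (red), in 4T1 (left, 7 genes) and MMTV-PyMT tumors (right, 3 genes tested). The 3 C44 tumors of the 4T1 model lie above and to the right of its 3B10 tumors, and 3B10 replicate 3 lies lowest at 2.21.

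Over the 12 tumors, 10887 other genes were compared with the mean of the genes tested, as z-scores within each model. The highest Pearson correlations were those of Ahr, the aryl hydrocarbon receptor (r = 0.936), Errfi1, an inhibitor of the EGF receptor (r = 0.881), Saa2, a serum amyloid A protein (r = 0.870), Mocs1, an enzyme of molybdenum cofactor synthesis (r = 0.851), and Marchf3, a ubiquitin ligase (r = 0.845). Without 4T1 3B10 replicate 3 these were 0.861, 0.895, 0.871, 0.705 and 0.730, with ranks of 4, 2, 3, 72 and 49 among the same genes, so the order rests on that tumor. The correlation was highest among many genes by selection, and the tumors of a model share its treatment groups.

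Ptn itself was measured in the tumors. In MMTV-PyMT tumors it was 2.80, 2.73 and 3.42 log2 CPM with C44 and 3.28, 2.95 and 4.22 with 3B10, which overlapped, at a change of 0.50 log2 units (SE 0.37, adjusted p = 1), or 0.13 without 3B10 replicate 3 and 0.77 without 3B10 replicate 2. In 4T1 tumors it did not pass the filter on low values.

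The cultures of E0771 and E0771-LG cells are carcinoma lines and not tumor tissue, and they were used for the background of these genes on the CPM scale of the MMTV-PyMT tumors. Cd3e, Cd3g and Gzmb had 0 reads in 11 of 12 cultures and at most 2, 1 and 1 reads, and Cd8a and Nkg7 had 0 reads in 10 of 12 and at most 4 reads. In MMTV-PyMT tumors Gzmb had 25 to 60 reads, Cd8a 11 to 28 and Cd3g 6 to 23, above all cultures. Cd3e, with 1 to 12 reads, and Nkg7, with 3 to 11, overlapped the cultures. Ptn itself had 128, 92 and 80 reads in E0771 control cells and 12, 21 and 22 with shPTN, and 216, 446 and 248 reads in E0771-LG control cells and 56, 35 and 45 with shPTN. It was lower in every shPTN culture than in any control of its line, which checks the labels. Lck and Cd3d had more reads in the cultures than the other 5 genes. Lck had 91, 67 and 84 reads in E0771 control cells and 157, 136 and 124 in E0771 shPTN cells. In E0771-LG cells it had 43, 87 and 50 reads with the control vector and 148, 133 and 159 with shPTN. MMTV-PyMT tumors had 53 to 92 Lck reads. Every shPTN culture was above this range, the E0771 controls were within it, and 2 of the 3 E0771-LG controls were below it. The Lck level in these tumors therefore does not stand clear of that of cultured carcinoma lines. The order of Lck by mean log2 CPM was E0771 shPTN (2.98 ± 0.06, SD, n = 3), E0771-LG shPTN (2.96 ± 0.20), E0771 control (2.16 ± 0.38), MMTV-PyMT 3B10 (1.99 ± 0.45), MMTV-PyMT C44 (1.74 ± 0.24) and E0771-LG control (1.64 ± 0.45). The first 2 did not differ beyond their spread, nor did neighbors among the last 4. Cd3d had 0 to 3 reads in E0771 cells, 3 to 16 in E0771-LG control cells and 22 to 36 in E0771-LG shPTN cells, the last above the 3 to 11 reads of MMTV-PyMT tumors.

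**Figure D4:**
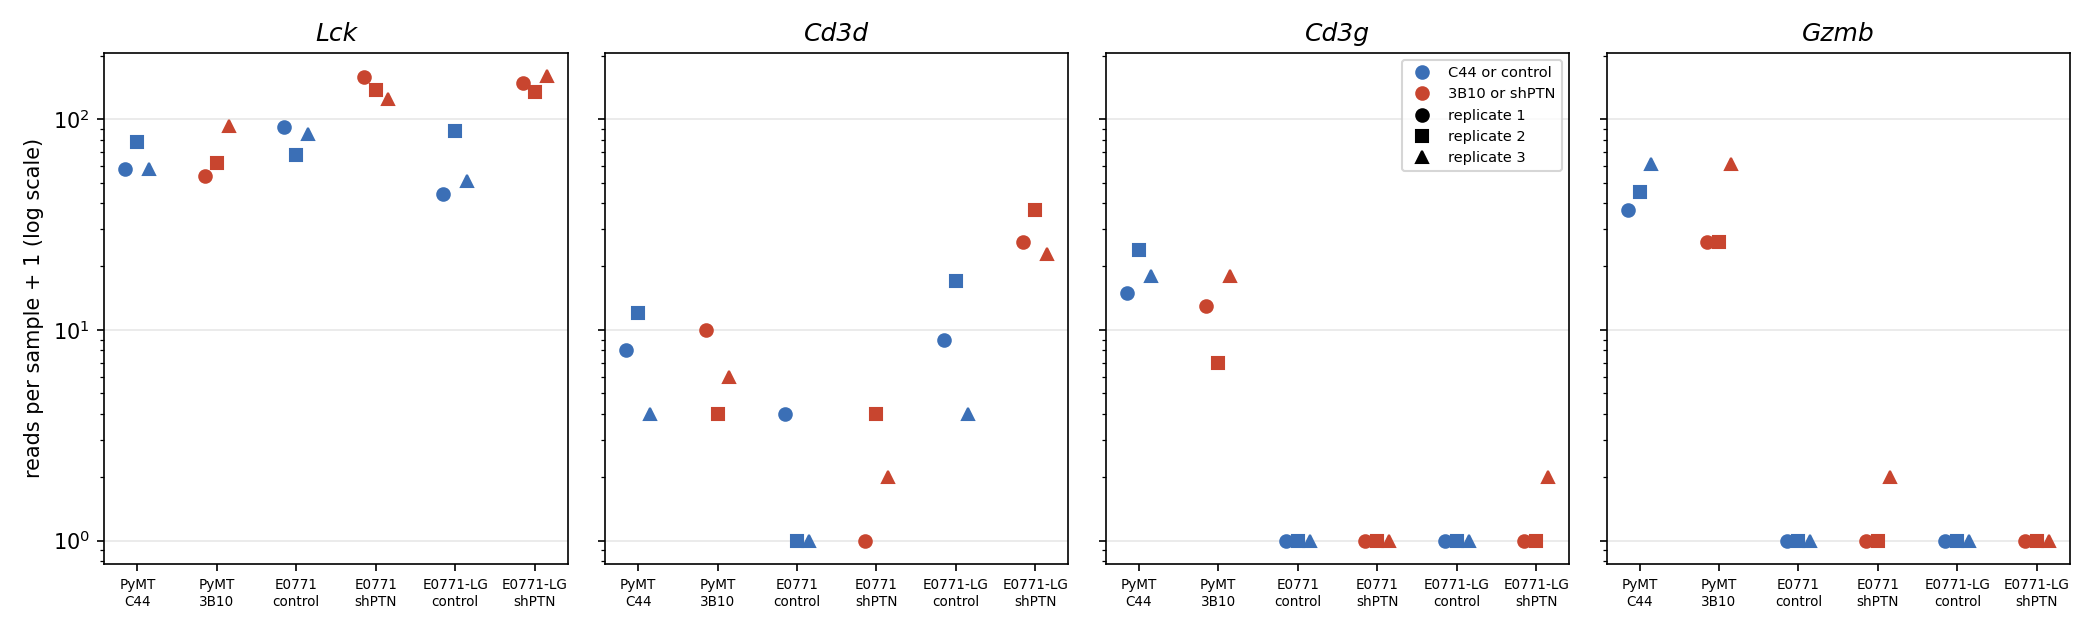
Reads per sample plus 1 (log axis) of Lck, Cd3d, Cd3g and Gzmb in MMTV-PyMT tumors (PyMT) and in E0771 and E0771-LG cells, 1 point per sample, blue for C44 or control and red for 3B10 or shPTN. Lck has 43 to 159 reads in the cells, Cd3d up to 36, and Cd3g and Gzmb at most 1.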

How the data were processed

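RNA of 12 tumors and 12 cell cultures was sequenced, and the submitters' processing notes and methods name HISAT2 for alignment to mm10, StringTie for assembly and featureCounts (Rsubread) for counting. The authors deposited 1 table of log2 values, and the step that made them is not given in the sources used here. The authors named edgeR and limma, and since the values were log2, limma 3.58.1 in R 4.3.3 (lmFit, eBayes with trend and robust) was fitted to each model's 6 tumors. A gene was tested if its unlogged value exceeded the sample minimum by at least 1 in at least 3 tumors. Adjusted p-values are limma's, by Benjamini-Hochberg over all genes tested. The interaction was fitted over 12 tumors, and the code was tested on simulated data. Plots were made with Python 3.11.15, numpy 2.4.6, pandas 2.3.3 and matplotlib 3.10.9. Positions and exon lengths are from GENCODE on GRCm38. The genes and lists were chosen with earlier results of these data known. Genes named were the 7, most list genes with an unadjusted p under 0.05 or the highest mean level, Ptn and 5 correlated genes, and exceptions are stated where they occur. Alternatives were filters, pseudocounts of 1 and 0.1, median-of-ratios and quantile scaling, eBayes that was not robust, all 24 samples in one fit, voom weights on recovered reads, and leaving out each tumor. Pairing by replicate number is not established.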

Additional observations from a re-analysis of the deposited data

Results flagged for a closer look

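Lck in both carcinoma cell lines and Cd3d in E0771-LG cells had more reads with shPTN than with the control vector, in data outside the tumor comparisons. Cd3d in E0771 cells and the other 5 genes in both lines had at most 4 reads in any culture. A minimum of 10 reads in every shPTN sample was set after the reads of Lck and Cd3d had been seen. The difference in mean log2 CPM, shPTN less control, was 1.78 for Cd3d in E0771-LG cells, 0.82 for Lck in E0771 cells and 1.32 for Lck in E0771-LG cells. In each case every shPTN sample was above every control sample. These differences were not tested here. The share of all genes that separated in this way in the cultures was not counted, so whether such a separation is unusual there is unknown.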

How the results depend on the processing

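The 7 genes were lower with 3B10 in 4T1 tumors under all 15 alternatives, with adjusted p from 0.265 to 1, so none passed the threshold. The filters, eBayes that was not robust, the replicate block and the common fit cannot change a fold change. For the 6 genes without overlap, a pseudocount or leaving out a tumor cannot turn the direction either, so only the scalings tested it. For Gzmb, the pseudocounts, the scalings and leaving out single tumors could have turned it. Leaving out each tumor in turn moved the median of the 7 genes between −1.54 and −0.78. The scalings left 6 of the 7 without overlap. The pseudocounts left 6 and leaving out a tumor 6 or 7, but neither could have lowered this count. The share of all genes lower without overlap moved as well, from 4.42% to between 5.82% and 18.9% when single tumors were left out. It was 18.9% without C44 replicate 3 and 10.6% without 3B10 replicate 2. These counts and shares, those of the lists, the comparison with pan-leukocyte genes and the correlations without 3B10 replicate 3 were recomputed under alternatives chosen after seeing the data. Genes past the adjusted threshold numbered 6 in 4T1 tumors and 1 for the difference between models, in place of 0, with all 24 samples in one fit, and 0 to 2 and 0 to 1 when single tumors were left out. None of the 7 genes was among them. The cause was not tested. In that common fit, 725 genes had an unadjusted p under 0.05 in MMTV-PyMT tumors, in place of 307. For the difference, 140 genes were lower and 112 higher at unadjusted p, and 110 and 157 with median-of-ratios scaling. Single tumors moved this split further, to 304 and 116 without 4T1 C44 replicate 3, 218 and 86 without 4T1 3B10 replicate 2, and 99 and 197 without 4T1 3B10 replicate 1.

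In MMTV-PyMT tumors the change in Cd8a, −0.01, was 0.0204 with a pseudocount of 1 and 0.10 with quantile normalization. It lay between −0.42 and 0.23 when single tumors were left out, with 0.03 and 0.05 without C44 replicates 2 and 3, and 0.15 and 0.23 without 3B10 replicates 2 and 3. The change in Lck lay between −0.00953, without 3B10 replicate 3, and 0.39, without C44 replicate 2. That in Thy1, 0.01, was −0.0439 with median-of-ratios scaling, −0.0463 with quantile normalization and −0.00269 with voom weights, and between −0.283 and 0.193 when single tumors were left out, with −0.230 without 3B10 replicate 1. The cause was not tested.

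Pairing by replicate number could not be decided. Deviations of tumors with the same number had r of −0.33, 0.44 and −0.25 in 4T1 and −0.04, 0.13 and 0.21 in MMTV-PyMT tumors. For tumors with different numbers, r ran from −0.33 to 0.48 in 4T1 and from −0.27 to 0.22 in MMTV-PyMT tumors. With 3 tumors per group such values cannot show whether tumors were paired. A replicate block gave 0 genes past the adjusted threshold in each of the 3 comparisons. The median of the 7 genes in 4T1 tumors was −1.27 with the block. Each block holds a tumor of each group, so this value is the same by construction and does not test pairing.

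Depth limits the MMTV-PyMT results, where 4 of the 7 genes had too few reads to be tested. The depth of the 4T1 tumors is unknown, so the counting error behind their values cannot be given.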
